A study of Mus musculus with 8 samples.

Results

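CD48-high and CD48-low cells of the mouse LSK gate (the Sca1-positive and cKit-positive cells of the bone marrow that lack markers of mature lineages) were compared on the 4 plates whose index sort recorded CD48. The wells of each plate that held at least 1000 gene counts and 500 genes were ranked by CD48 fluorescence and divided into 3 equal parts, of which the high and the low part are the arms compared. This gave 451 CD48-high and 451 CD48-low cells, 112 or 113 per plate and arm, with 452 cells between them, out of 1354 wells joined to a sort record on these plates and 2727 wells past the same minimum in the whole series. The cells were chosen by their CD48 fluorescence, so it is given as a description and is not tested.

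The cells came from Dach1-GFP reporter mice aged 8 to 16 weeks, in which a biotin tag and an IRES-GFP cassette at the end of the Dach1 gene make GFP a readout of Dach1 transcription. The allele goes back to 1 targeted clone of C57BL/6 embryonic stem cells, and its neomycin resistance cassette had been removed with Flpe recombinase, per the labels. Marrow was enriched for cKit on magnetic beads before the sort. All groups described here share this genotype, none was treated, and each plate is a replicate (replicates 1 to 4 are plates LCE409, LCE407, LCE408 and LCE410). The labels do not say which animals filled a plate, so a p-value here covers only variation between plates, which may be technical. The gene tests also share variance information across genes. Their p-values and standard errors are thus not the spread over plates of the named gene alone. Single cells were index sorted, which keeps the fluorescence of each cell with its well, and were profiled by CEL-seq2, a method that primes on poly(A) tails, adds a cell barcode and copies the pooled RNA of a plate by transcription. Median counts per well were 5625.5 to 7525 and median genes per well 2480.5 to 3008 over the plates. Kit, the gene of cKit, was at 170 to 325 CPM (counts scaled to a common total per plate and arm) and Ly6a, the gene of Sca1, at 31.7 to 106 CPM in every sum of counts. Neutrophil markers summed to 0 to 8.26 CPM in every sum. Markers of T and NK cells summed to 46.9 to 64.8 CPM in CD48-low and 73.8 to 119 CPM in CD48-high cells. Most of this came from Nkg7 (138, 229 and 337 counts in all CD48-low, middle and CD48-high cells), while Cd3d had 1, 1 and 0 counts. Nkg7 is also on the list of granulocyte and monocyte genes used below. Stromal and endothelial markers summed to 13.6 to 32.0 and 14.4 to 18.2 CPM, mostly from Emcn, with 0, 0 and 1 counts of Cdh5, and macrophage markers to 28.1 to 46.0 and 16.7 to 75.2 CPM. The part of these markers in the results was not tested. Of the 1354 cells 12 were rich in B cell, plasma cell or red cell RNA.

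CD48 is a glycolipid-anchored protein of the SLAM and CD2 family that binds CD244 and CD2 on neighbouring cells. In mouse marrow it is absent from most long-term stem cells and appears on multipotent progenitors as they leave the stem cell state, and together with CD150 it is used to separate stem cells from progenitors within the LSK gate. Long-term stem cells divide rarely, whereas CD48-positive progenitors divide often and give rise to myeloid and lymphoid cells.

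Fluorescence of CD48 ran without a gap through the edges of the arms. On replicate 1 the brightest CD48-low cell was at 3115 and the dimmest middle cell at 3151, and the brightest middle cell was at 5149 and the dimmest CD48-high cell at 5178. These pairs were 3243 and 3264, and 5747 and 5808, on replicate 2. They were 2816 and 2827, and 5185 and 5187, on replicate 3, and 3444 and 3461, and 5685 and 5685, on replicate 4. The median of the high arm was 3.75 to 4.93 times that of the low arm. No cell was below 0, and the dimmest cell of a plate was at 147 to 177.

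Cd48 RNA followed the protein. It was 60.4, 54.5, 46.0 and 48 CPM in the CD48-low cells of replicates 1 to 4, and 155, 127, 126 and 147 CPM in the CD48-high cells, with the middle cells between at 107 ± 3.88 CPM (SD, n = 4). All CD48-high values lay above all CD48-low values. The log2 difference, CD48-high minus CD48-low, was 1.43 ± 0.14 (SE, edgeR adjusted p = 8.97e-12, higher on 4 of 4 plates). With each well thinned to 3000 counts, 30.7% of CD48-high and 13.6% of CD48-low cells held a Cd48 count (exact 95% interval of the latter 10.5% to 17.2%, counting error only), against 62.3% and 24.6% without thinning. Across the cells of a plate (336 to 340), the rank correlation of CD48 fluorescence with Cd48 CPM was 0.26 to 0.33, a description over cells that share plate and depth. Other genes of the SLAM and CD2 family did not pass: of 4 tested members only Cd48 did, and Cd84, Ly9 and Cd244a differed by -0.19, -0.20 and 0.03. Of 16 tested genes that build the glycolipid anchor, 1 was higher and 1 lower past the threshold.

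The 250 bases before the RefSeq start of Cd48 (GRCm38.p6, chr1:171681742-171681991, plus strand) are shown because Cd48 is the gene of the sorted protein, and like those below they run 5′ to 3′ on the strand of the gene. Capitals mark TTTGAA, searched on both strands and also found before 16.3% of 27025 RefSeq genes.
Cd48: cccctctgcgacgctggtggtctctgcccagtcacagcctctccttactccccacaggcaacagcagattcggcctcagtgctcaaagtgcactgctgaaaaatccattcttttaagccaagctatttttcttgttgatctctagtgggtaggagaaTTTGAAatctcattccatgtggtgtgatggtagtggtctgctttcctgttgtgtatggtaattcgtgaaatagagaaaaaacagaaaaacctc

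The arms differed in other sorted proteins, in size and in RNA content. Median counts per well were 6437, 5137, 4684 and 4722 in CD48-low and 9770, 8670, 7024 and 7295 in CD48-high cells of replicates 1 to 4, a ratio of 1.56 ± 0.09 (SD, n = 4 plates). Forward scatter, which rises with cell size, had a ratio of medians of 1.15 ± 0.04, and side scatter, which rises with granularity, 1.23 ± 0.09. CD150, a SLAM protein of long-term stem cells and megakaryocyte progenitors, had a ratio of 1.71 ± 0.10, with medians of 847, 761, 787 and 878 in CD48-low and 1469, 1343, 1391 and 1375 in CD48-high cells. CD16/32, the Fc receptors of granulocyte and monocyte progenitors, and IL7R, the interleukin-7 receptor of lymphoid progenitors, had ratios of 1.32 ± 0.14 and 1.29 ± 0.15. Sca1 went the other way: its medians were 6188, 5247, 5608 and 6085 in CD48-low and 3047, 3578, 3198 and 2708 in CD48-high cells, a ratio of 0.55 ± 0.10. CD135, the FLT3 receptor of multipotent and lymphoid-primed progenitors, and Dach1-GFP did not run in one direction over the 3 parts. CD135 medians were 2791 to 4594 in CD48-low, 6992 to 8778 in middle and 4136 to 6868 in CD48-high cells, and Dach1-GFP medians were 1010 to 1260, 363 to 471 and 536 to 906. For each measure named in this paragraph the high and low arms differed in the same direction on 4 of 4 plates, which gives an exact two-sided sign-flip p of 0.13, the smallest that 4 plates allow (0.159 after adjustment over 14 measures), so none can pass. cKit, CD11b and PIR-A did not differ in one direction on all plates. Spillover between channels was not tested, and CD48 and CD150 were read from tandem dyes with the same acceptor, per the file headers.

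**Figure D1:**
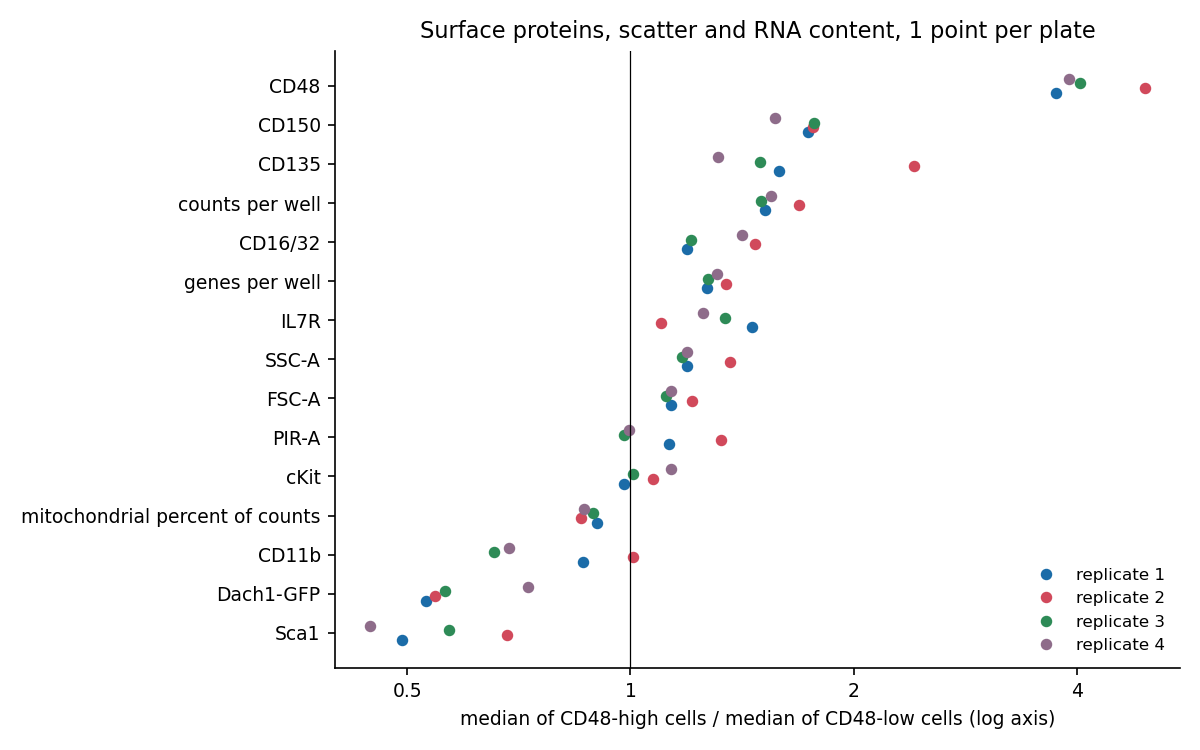
Ratio of the median of CD48-high to the median of CD48-low cells (log axis) for each surface protein, scatter and measure of RNA content, 1 point per plate. CD48 chose the cells; CD150 and counts per well sit above 1 and Sca1 and Dach1-GFP below 1 on all 4 plates.

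RNA of 1043 of 9082 tested genes (11.5%) differed between the arms, 640 higher (7.05%) and 403 lower (4.44%) in CD48-high cells, by edgeR's quasi-likelihood test with the plate as a block and Benjamini-Hochberg adjustment at 0.05. For 877 genes (9.66%) the CPM of the 4 plates did not overlap between arms. DESeq2 called 203 genes (2.24%, with 1.6% higher and 0.639% lower), all among the 1043 and with the same sign. Its adjusted p is given for some of the genes named below that it did not call. A gene named without that value was not necessarily called by DESeq2. With wells thinned to equal depth 439 of 5091 genes passed (8.62%), 402 of them shared with the same sign. Without replicate 2 the count was 677 (426 higher and 251 lower), and without the plate block it was 298. Without a scaling factor for composition 998 passed, 492 higher and 506 lower, so that 49.3% of calls were higher in place of 61.4%.

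Stem cell genes were lower in CD48-high cells. Of 38 listed genes 21 had enough counts to be tested, and 19 of the 21 were lower and 0 higher past the threshold (DESeq2 13 lower), with a median log2 difference of -0.93 beside -0.01 over all genes tested. Hlf, a transcription factor that marks and maintains stem cells, was 498, 632, 521 and 483 CPM in CD48-low and 232, 261, 217 and 202 CPM in CD48-high cells. The arms did not overlap, and the difference was -1.19 ± 0.07 (edgeR adjusted p = 2.32e-19, lower on 4 of 4 plates). Txnip, a thioredoxin-binding protein linked to stem cell quiescence, was 384 to 513 CPM in CD48-low and 206 to 245 CPM in CD48-high cells (-1.02 ± 0.07). Mecom, the gene of the stem cell factor EVI1, fell from 62.7 to 24.7 CPM in the mean (-1.25 ± 0.21), and Meis1, a homeobox factor, from 171 to 104 CPM (-0.67 ± 0.11). Ifitm1, an interferon-inducible membrane protein, was lower by 0.76 on the log2 scale, and Ltb, the gene of lymphotoxin beta, had a difference of -1.23 ± 0.15. Procr, the gene of the stem cell marker EPCR, was 37.5 CPM in CD48-low and 17.1 CPM in CD48-high cells (-1.07), but its arms overlapped and its DESeq2 adjusted p was 0.15. The summed level of the 38 genes was 2652 to 3149 CPM in CD48-low, 1915 to 2108 CPM in middle and 1437 to 1549 CPM in CD48-high cells, so the 3 parts did not overlap. Robo4 and Prdm16 were tested and did not pass. In sums of cells, fewer cells that hold a transcript and less of it per cell cannot be told apart, here and below.

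The 250 bases before the start of Hlf (GRCm38.p6, chr11:90390918-90391167, minus strand) are shown because Hlf had the smallest p among the stem cell genes. None of the motifs searched (the NF-Y box CCAAT, the cell cycle homology core TTTGAA and the E2F site TTTCGCGC on both strands, and the TATA box as TATAAA on the strand of the gene) is in this window, so it has no capitals.
Hlf: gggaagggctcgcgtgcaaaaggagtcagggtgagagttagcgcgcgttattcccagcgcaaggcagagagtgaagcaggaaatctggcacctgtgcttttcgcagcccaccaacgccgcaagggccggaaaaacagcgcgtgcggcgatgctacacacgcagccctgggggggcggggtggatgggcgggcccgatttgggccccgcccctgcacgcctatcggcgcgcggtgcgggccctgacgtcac

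**Figure D2:**
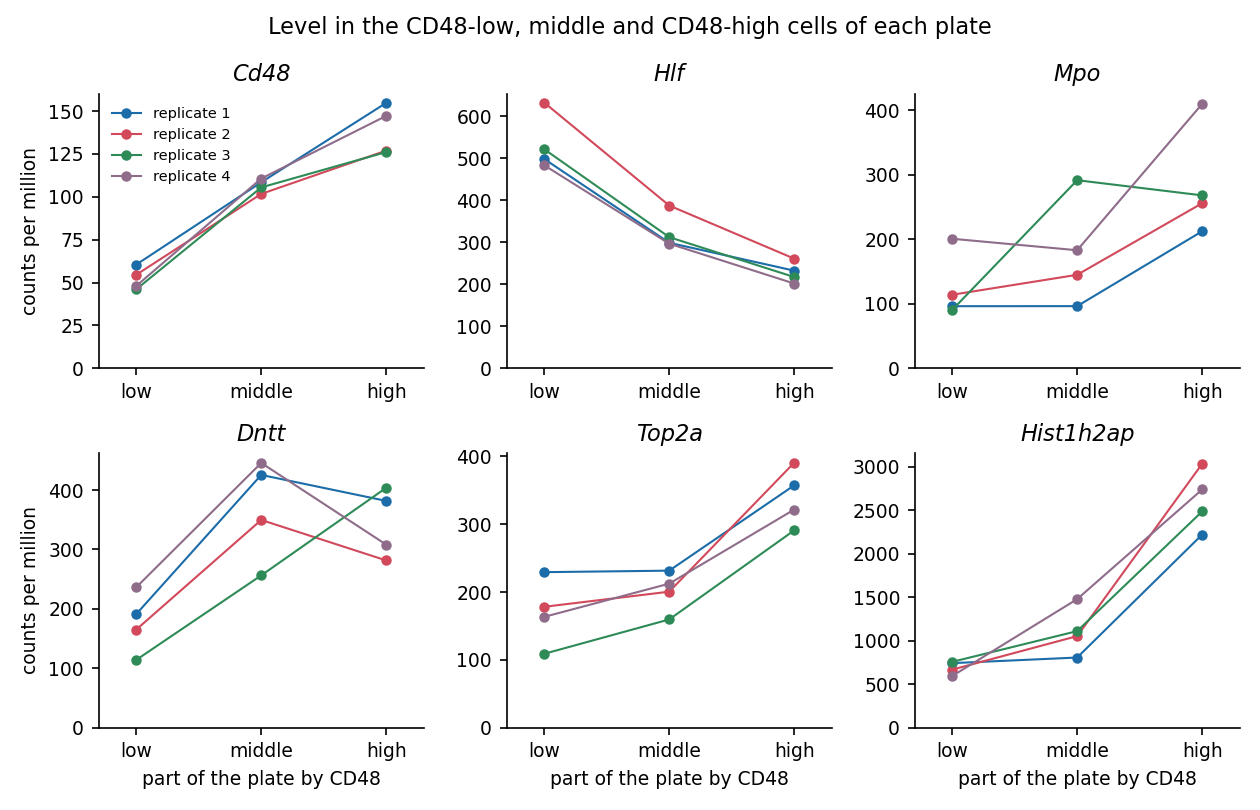
CPM of 6 genes in the CD48-low, middle and CD48-high cells of each plate, 1 line per plate. Cd48 rises and Hlf falls over the 3 parts on every plate, Top2a and Hist1h2ap rise mostly from middle to high, and Dntt spans 256 to 446 CPM in middle and 282 to 404 CPM in CD48-high cells.

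Genes of dividing cells were higher in CD48-high cells. Of 28 genes of G2 and M phase, all tested, 24 were higher and 0 lower past the threshold (DESeq2 7 higher), with a median log2 difference of 0.89. Top2a, the topoisomerase that untangles replicated chromosomes, was 229, 178, 109 and 163 CPM in CD48-low and 357, 391, 291 and 322 CPM in CD48-high cells (1.01 ± 0.09, edgeR adjusted p = 1.73e-12). Hmgb2, a chromatin protein of proliferating cells, was 152 to 210 CPM in CD48-low and 351 to 421 CPM in CD48-high cells (1.15 ± 0.08). Cdk1, the kinase of mitotic entry, was 42.6 to 53.0 and 81.3 to 105 CPM (0.98 ± 0.15). The arms did not overlap for these 3 genes. Mki67, the gene of the proliferation antigen Ki-67, differed by 0.65 ± 0.11, with an overlap between replicate 1 of the low arm (163 CPM) and replicate 3 of the high arm (110 CPM). Aurka, Bub1, Cenpa and Cenpe did not pass.

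Of 26 S phase genes, all tested, 15 were higher and 0 lower (DESeq2 7 higher; median 0.49). Dut, which keeps uracil out of DNA, was 80.9 to 107 CPM in CD48-low and 155 to 185 CPM in CD48-high cells (0.84 ± 0.11), and Mcm3, a subunit of the replicative helicase, was 80.9 to 92.5 and 145 to 178 CPM (0.84 ± 0.12). Pcna, the clamp of the replication fork, rose from 324 ± 45.8 to 439 ± 2.76 CPM (0.46 ± 0.07), and Uhrf1, which carries DNA methylation through replication, by 1.04 ± 0.16. Cdk6, a G1 kinase that sets how fast stem cells leave rest, was 650, 672, 675 and 697 CPM in CD48-low and 942, 877, 922 and 876 CPM in CD48-high cells (0.46 ± 0.05, edgeR adjusted p = 4.13e-10), with no overlap. Of 12 tested G1 cyclins and kinases 3 were higher (Cdk6, E2f2 and E2f1, the latter 2 with DESeq2 adjusted p of 0.17 and 0.35, and E2f1 lost without replicate 3 or 4 at 0.66 and 0.82). Of 13 tested quiescence genes and inhibitors of cyclin-dependent kinases 2 were higher and 1 lower, and DESeq2 called 0, with 6 of 13 differences above 0.

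Histone H2A genes were higher in CD48-high cells. Of 66 genes of the replication-dependent histone clusters, a list added after the values were seen, 23 could be tested, 17 were higher and 1 lower (DESeq2 13 and 0), with a median of 1.95. Hist1h2ap was 744, 669, 758 and 595 CPM in CD48-low and 2223, 3037, 2489 and 2741 CPM in CD48-high cells (1.94 ± 0.06, edgeR adjusted p = 5.32e-32). Hist1h2ag was 360 ± 45.4 CPM in CD48-low and 1650 ± 265 CPM in CD48-high cells (2.20 ± 0.07). Of the 17 that rose, 15 were H2A genes, and Hist1h4i and Hist1h1e were the others, at 1.31 and 0.74. Hist1h2bc, an H2B gene, was lower (-0.66, DESeq2 adjusted p = 0.52). The H2A genes are nearly identical in sequence, and Hist1h2ag and Gm11336 had almost the same values in each sum (360 and 338 CPM in CD48-low, 1650 and 1551 CPM in CD48-high cells), so they may share counts and single H2A genes are uncertain. Most replication-dependent histone mRNAs end in a stem-loop without a poly(A) tail, and how the primer captured them was not tested.

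The 250 bases before the start of Hist1h2ag (H2ac11 in RefSeq, GRCm38.p6, chr13:22042950-22043199, minus strand) and of Top2a (chr11:99024190-99024439, minus strand) are shown as members of the histone list and the G2 and M phase list. Capitals mark the NF-Y box CCAAT, the cell cycle homology core TTTGAA and the E2F site TTTCGCGC on either strand.
Hist1h2ag: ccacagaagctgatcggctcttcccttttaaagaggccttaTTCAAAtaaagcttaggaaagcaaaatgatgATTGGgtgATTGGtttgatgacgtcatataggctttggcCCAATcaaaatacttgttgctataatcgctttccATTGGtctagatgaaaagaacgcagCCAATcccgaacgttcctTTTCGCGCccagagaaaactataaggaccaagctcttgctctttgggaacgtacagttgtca
Top2a: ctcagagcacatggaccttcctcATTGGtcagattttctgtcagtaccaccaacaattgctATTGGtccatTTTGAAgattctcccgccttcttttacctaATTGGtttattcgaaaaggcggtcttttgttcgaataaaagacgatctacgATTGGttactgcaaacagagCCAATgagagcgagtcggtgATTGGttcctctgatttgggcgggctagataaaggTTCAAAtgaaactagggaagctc
CCAAT occurs 5 times before Hist1h2ag and 6 times before Top2a. It was present before 22 of 25 matched G2 and M phase genes (88%), 48 of 58 matched histone genes (82.8%), 15 of 22 S phase genes (68.2%) and 10 of 29 stem cell genes (34.5%), against 34.5% of all 27025 genes. TTTGAA was before 36%, 44.8%, 13.6% and 10.3% of these groups, against 16.3% of all. TTTCGCGC occurs 1 time before Hist1h2ag and was before 0.255% of all genes. TATAAA on the gene's strand was before 41.4% of the histone genes, 0% of the G2 and M and S phase genes and 8.12% of all. These matches are letters in a window of fixed size and no measure of binding.

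The share of cells with division RNA rose too. With wells thinned to 3000 counts, at least 3 counts of the G2 and M phase list were found in 51.4, 43.1, 27.5 and 47.7% of CD48-low cells of replicates 1 to 4, and in 69.7, 57.8, 48.1 and 71.2% of CD48-high cells. The high arm was above the low arm on each plate, by 19.3 points in the mean (exact sign-flip p = 0.13, the smallest possible). Without thinning the shares were 73.8% and 89.1% of all CD48-low and CD48-high cells. At least 10 counts of Hist1h2a genes, a measure chosen after the values were seen, were found in 13.6% of CD48-low, 18.7% of middle and 34.8% of CD48-high thinned cells.

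**Figure D3:**
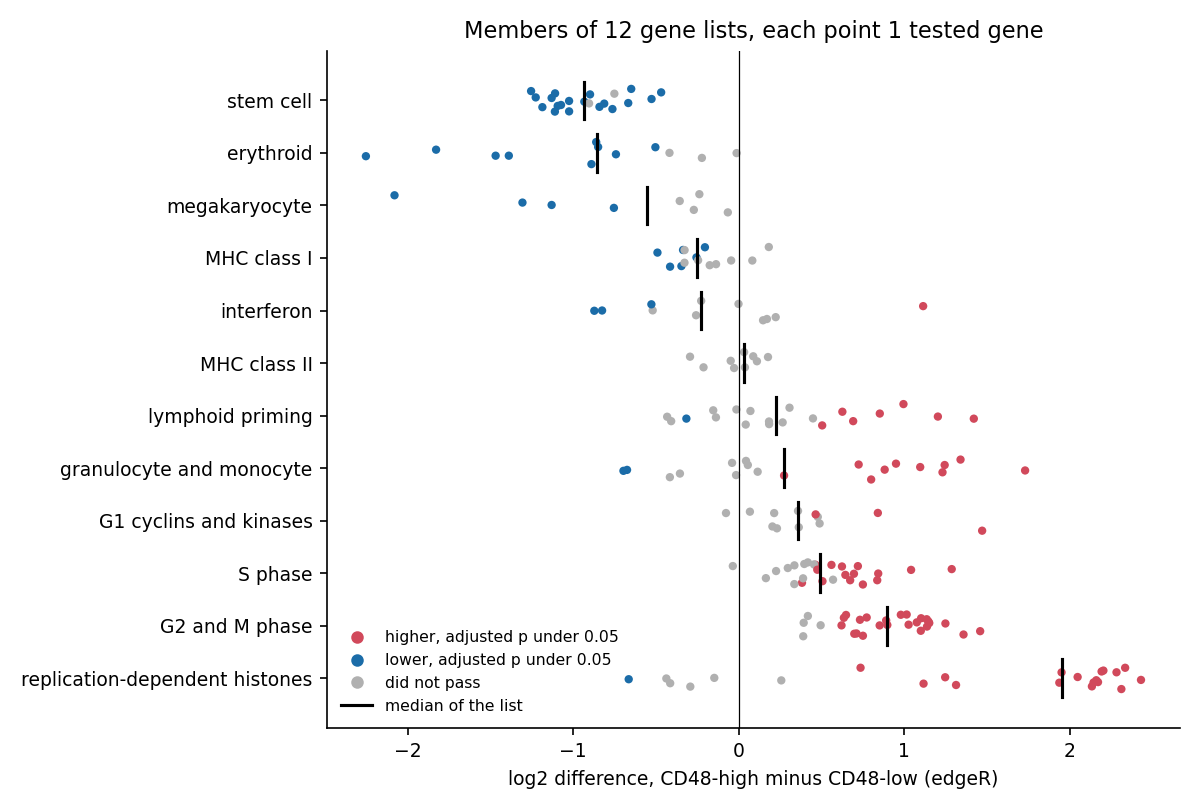
Log2 difference, CD48-high minus CD48-low, of each tested member of 12 gene lists, coloured by whether it passed the edgeR test, with the median of the list as a bar. Stem cell, erythroid and megakaryocyte genes lie left of 0, and all 28 G2 and M phase, 25 of 26 S phase and 18 of 23 histone genes right of 0, while the myeloid and lymphoid lists spread to both sides.

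Granule and myeloid genes were higher in CD48-high cells, though not as a whole list. Of 27 granulocyte and monocyte genes 19 were tested, 10 were higher and 2 lower (DESeq2 4 and 0), with a median of 0.27. Mpo, the myeloperoxidase of azurophil granules, was 96.2, 114, 90.3 and 201 CPM in CD48-low and 212, 256, 268 and 410 CPM in CD48-high cells (1.23 ± 0.10, edgeR adjusted p = 1.9e-14). Ctsg, the granule protease cathepsin G, was 22.2 to 47.9 and 85.5 to 165 CPM (1.73 ± 0.16). Plac8, expressed by myeloid and lymphoid progenitors, was 268 to 386 and 478 to 620 CPM (0.88 ± 0.07). The arms did not overlap for these 3 genes, and within each plate the CD48-high value of Mpo was higher. Clec12a, a C-type lectin of myeloid cells, was 13.2 to 16.0 and 30.6 to 41.4 CPM (1.34 ± 0.25). Elane, the gene of neutrophil elastase, had 0 counts in both arms of replicate 1, and Prtn3, the gene of proteinase 3, differed by only 0.27 ± 0.08 with overlapping arms (DESeq2 adjusted p = 0.81 and 0.46). Csf2ra and Gfi1 were the members that were lower (-0.67 and -0.70, DESeq2 adjusted p = 0.25 and 0.34).

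Lymphoid priming genes were split. Of 20 tested members 7 were higher and 1 lower (DESeq2 5 and 0), with a median of 0.22. Dntt, the terminal transferase of early lymphocytes, was 191, 165, 114 and 236 CPM in CD48-low and 382, 282, 404 and 308 CPM in CD48-high cells (1.0 ± 0.11, edgeR adjusted p = 3.55e-10), and the arms did not overlap. Satb1, a chromatin organiser of lymphoid progenitors, rose by 0.50 ± 0.10, and Cd52 by 0.63 ± 0.12. Irf8, a regulator of dendritic cell and B cell fate on the dendritic list, was 18.7 to 30.2 and 61.8 to 83.7 CPM (1.58 ± 0.19), and Ly6d, a marker of B lineage progenitors on the same list, rose by 1.87 ± 0.36 from 5.93 CPM. Of 7 tested dendritic genes 2 were higher and 0 lower (DESeq2 2 and 0, median 0.18), and 4 of 7 differences were above 0. Flt3 did not pass (0.18 ± 0.09, adjusted p = 0.17), nor did Ikzf1, Mef2c or Tcf3. The 9 tested genes of MHC class II differed by -0.29 to 0.18 and none passed (edgeR, 0 at an unadjusted p under 0.05, DESeq2 0). With CD48 corrected for scatter 2 of 8 were higher (median 0.24), and corrected for all channels 2 of 8 were lower (median -0.27). Bcl11a was the member that was lower (-0.32, DESeq2 adjusted p = 0.25).

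Some lymphoid differences moved with a few cells. The summed level of 9 B cell markers was 85.1 to 178 CPM in CD48-low and 173 to 318 CPM in CD48-high cells. That of 5 plasma cell markers was 14.2 to 90.8 and 35.1 to 208 CPM. In middle cells the B cell sum was 154 to 471 CPM and the plasma cell sum 33.7 to 118 CPM. Of the cells rich in plasma cell RNA 4 were CD48-high, 1 middle and 0 CD48-low. Without the 12 cells rich in RNA of another lineage 1069 of 9109 genes passed (11.7%). Igkc then changed from 0.98 to -0.36 and Jchain from 1.39 to -0.44, while Dntt stayed at 1.0 and Irf8 was 1.55. Ighm, the heavy chain of IgM, was 0.69 with and 0.39 without them (edgeR adjusted p = 9e-09 and 0.0024).

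Erythroid, megakaryocyte and mast cell genes were lower where they passed, apart from Cpa3. Of 12 tested erythroid genes 9 were lower and 0 higher (DESeq2 2 lower; median -0.86). Car2, a carbonic anhydrase of early erythroid and stem cells, was 826, 768, 862 and 698 CPM in CD48-low and 476, 388, 391 and 450 CPM in CD48-high cells (-0.85 ± 0.06, edgeR adjusted p = 5.66e-16), without overlap. Tal1, a factor of stem and erythroid cells, fell from 98.3 to 57.2 CPM (-0.74 ± 0.14). The 4 globin genes were lower too over the 4 plates together, but replicate 3 held most of their counts in CD48-low cells. Hba-a1 was at 242 CPM in the CD48-low cells of replicate 3, against 5.33 to 38.2 CPM on the other plates. On replicate 4 the red cell markers, globin genes among them, summed to 58.6 CPM in CD48-low and 82.7 CPM in CD48-high cells. Without the cells rich in RNA of another lineage 7 of 12 erythroid genes were lower. Without replicate 3, Hbb-bs changed from -1.47 to -0.61 and no longer passed, and without the cells rich in RNA of another lineage Hba-a1 changed from -2.25 to -0.73 (edgeR adjusted p = 0.15). Alas2, which makes heme in maturing red cells, had 0, 5 and 1 counts in CD48-low, middle and CD48-high cells.

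Of 8 tested megakaryocyte genes 4 were lower and 0 higher (DESeq2 2 lower; median -0.56). Mmrn1, the gene of multimerin, had the largest fall among genes lower on all 4 plates, from 32.1, 42.9, 47.7 and 55.1 CPM in CD48-low to 12.6, 2.95, 9.70 and 14.7 CPM in CD48-high cells (-2.08 ± 0.27, edgeR adjusted p = 7.94e-08). Pf4, the platelet chemokine, differed by -1.31 but by -0.79 without replicate 1, when it did not pass. Slc18a2, which loads histamine and serotonin into mast cell granules, was 25.6 to 48 CPM in CD48-low and 8.10 to 20.4 CPM in CD48-high cells (-1.40 ± 0.26). Cpa3, the mast cell carboxypeptidase, went the other way, from 16.7 to 40.0 CPM (1.24 ± 0.24, DESeq2 adjusted p = 0.067), with arms that overlapped between replicate 4 of the low and replicate 1 of the high arm.

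Some MHC class I and interferon genes were lower in CD48-high cells. Of 14 MHC class I genes, all tested, 6 were lower and 0 higher (DESeq2 2 lower; median -0.25), led by H2-K1, a class I heavy chain, at 1164 ± 131 CPM in CD48-low and 889 ± 67.1 CPM in CD48-high cells (-0.35 ± 0.05). B2m, their shared light chain, differed by -0.26 ± 0.03 with overlapping arms. Of 11 tested interferon genes 3 were lower and 1 higher (DESeq2 2 and 0), with differences from -0.87 to 1.11. The higher one, Ifi27l2a, did not pass without replicate 4 (1.07) or with DESeq2 (adjusted p = 0.44).

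Genes of growth and metabolism moved in both directions. Of 30 tested ribosome biogenesis genes 3 were higher and 0 lower (median 0.16, DESeq2 0), of 84 cytosolic ribosomal protein genes 19 were higher and 3 lower (median 0.08, DESeq2 3 and 0, and 8 and 6 of 83 with thinned wells), and of 82 nuclear genes of the respiratory chain 13 were higher and 1 lower (median 0.19, DESeq2 1 and 0). Cox5a, a subunit of complex IV, was 148 ± 8.34 CPM in CD48-low and 211 ± 12.6 CPM in CD48-high cells (0.55 ± 0.10), without overlap. Of 17 tested mitochondrially encoded genes 1 was higher and 5 lower, among them the ribosomal RNA mt-Rnr2 (-0.24 ± 0.03, arms overlapping), and the mitochondrial share of counts was lower on each plate (ratio 0.88 ± 0.02). Mycn, the form of Myc that stem cells express, was lower (-0.93 ± 0.17), while Myc was 168 CPM in CD48-low and 214 CPM in CD48-high cells (0.39 ± 0.09, DESeq2 adjusted p = 0.22). Of 16 tested glycolysis genes 5 were higher and 2 lower (DESeq2 0), of 18 tested adhesion and homing genes 4 were higher and 1 lower, and the 7 tested immediate early and heat shock genes differed by -0.51 to 0.18.

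Other genes with large falls were Hacd4, which extends very long fatty acids (52.2 CPM in CD48-low, 14.6 CPM in CD48-high cells, -1.73 ± 0.24), Ptgs1, the cyclooxygenase of platelets and stem cells (39.8 and 12.0 CPM, -1.65 ± 0.25), and Gimap5, a GTPase for survival of resting lymphocytes and stem cells (52.0 and 20.6 CPM, -1.29 ± 0.21). Tnip3, Kdm7a, Itsn1 and Gm38197 fell by 1.53, 1.42, 1.30 and 1.37 on the log2 scale without overlap. Ctse fell by 1.70 with overlapping arms. Arhgef12 and Trim47 (-1.43 and -1.30) were not called by DESeq2 (adjusted p = 0.14 and 0.20), and Trim47 was -0.78 and did not pass without replicate 2. Among the 12 largest rises, 10 were H2A genes or Gm11336, and the others were Snord13, a small nucleolar RNA gene (4.18 and 23.9 CPM, 2.5 ± 0.37), and Gm15428 (6.12 and 31.5 CPM, 2.31 ± 0.33).

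Of the genes of the sorted proteins, Ly6a (Sca1) was 80.0 to 106 CPM in CD48-low and 31.7 to 73.8 CPM in CD48-high cells (-0.81 ± 0.15), the same direction as its protein. Kit was lower by a small amount with overlapping arms (-0.34 ± 0.08, DESeq2 adjusted p = 0.23). Dach1 was 38.2, 23.1, 11.9 and 49.8 CPM in CD48-low and 17.1, 15.7, 10.9 and 19.3 CPM in CD48-high cells, lower on 4 of 4 plates with overlapping arms (-0.92 ± 0.25, edgeR adjusted p = 0.011). The call was lost without replicate 1 (-0.81), without replicate 4 (-0.74) and with DESeq2 (adjusted p = 0.50). Itgam, the gene of CD11b, differed by -0.02, and Slamf1, Il7r, Fcgr3, Fcgr2b and Pira2 had too few counts to be tested.

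The middle cells mostly lay between the arms. A linear score over low, middle and high called 1094 of 9467 genes (11.6%), and a term for a departure of the middle cells from that line called 14 (0.148%), 7 in each direction (0.0739%). Dntt was among the 7 that were higher in middle cells than the line gives, by 0.57 on the log2 scale (edgeR adjusted p = 6.2e-05), with 425, 350, 256 and 446 CPM in the middle cells of replicates 1 to 4. Ighm (0.36), H2afy, a histone variant gene (0.19), H2-Ob, a chaperone of MHC class II (0.75), and Mn1, a transcriptional coregulator (0.97), were others of this kind. Mn1 was 36.4 CPM in middle cells and 18.5 and 18.3 CPM in the low and high arms. Hist1h2ap (-0.31), Hist1h2ac (-0.34), Tuba1b, an alpha tubulin (-0.25), Igkc (-0.52) and Rexo1 (-0.81) were below the line. The middle term was not refitted without the cells rich in RNA of another lineage. Their part in the values of Ighm, H2-Ob and Igkc was thus not tested. Without replicate 1 the middle term called 1 gene and without replicate 2 it called 4. The linear score called 701 genes without replicate 2 and 694 without replicate 4. The middle term was above 0 for 20 of 22 lymphoid priming genes, beside 4728 of 9467 over all genes. Mean summed levels in low, middle and high cells were 2250, 3007 and 2736 CPM for lymphoid priming genes. They were 722, 885 and 781 CPM for dendritic and 525, 638 and 507 CPM for MHC class II genes. For stem cell, S phase and G2 and M phase genes the middle mean lay between the arms.

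**Figure D4:**
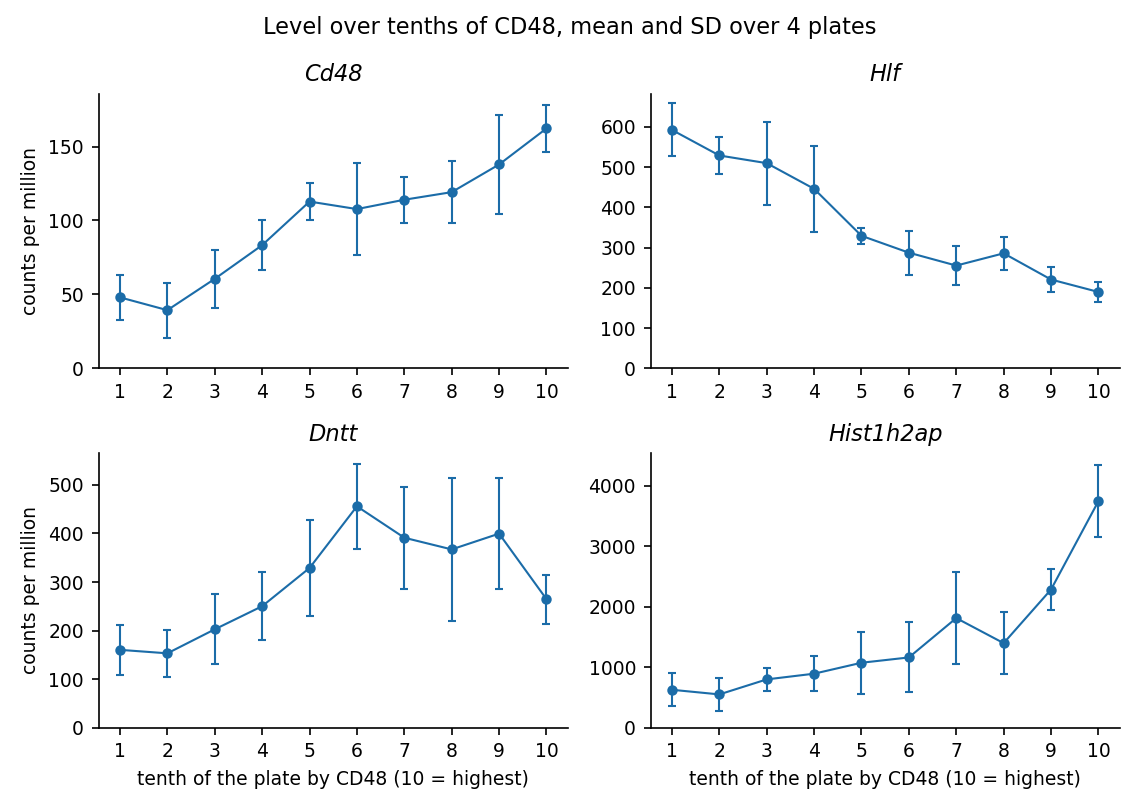
CPM of 4 genes over 10 equal parts of each plate by CD48 fluorescence, mean and SD over the 4 plates. Hlf falls and Cd48 rises over the range, Dntt is highest in part 6 and lower in part 10, and Hist1h2ap is highest in part 10.

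Over 10 equal parts of CD48, Hlf fell from 593 ± 65.9 CPM in the dimmest to 190 ± 24.8 CPM in the brightest part. Hist1h2ap was 629 ± 275 CPM in the dimmest, 1075 ± 512 CPM in the fifth and 3744 ± 591 CPM in the brightest part. Dntt rose from 160 ± 51.3 CPM to 456 ± 87.6 CPM in part 6 and was 265 ± 50.2 CPM in the brightest part. Mpo was 126 ± 76.3 CPM in the dimmest and 347 ± 67.3 CPM in the brightest part. These are descriptions over parts of one plate each.

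The differences were then set beside those by CD135, CD150, Dach1-GFP and forward scatter. Each plate was split at its medians of CD48 and of the other measure, and both effects were fitted together. Split at the median alone, CD48 called 895 of 10382 genes (8.62%). Adjusted for CD135 it called 921 of 8595 (10.7%), for Dach1-GFP 872 of 8730 (9.99%), for CD150 704 of 8138 (8.65%), and for forward scatter 377 of 8110 (4.65%), where forward scatter itself called 892 (11%). The shares of all genes higher by CD48 in these fits were 6.55%, 6.32%, 5.48% and 2.96%, and the shares lower were 4.17%, 3.67%, 3.17% and 1.69%. Without adjustment, the split at the plate median gave a G2 and M phase median of 0.76 (22 of 28 higher). Its stem cell median was -0.69 (19 of 22 lower). The medians of 0.89 and -0.93 given above are for the high and low arms, not for this split. Adjusted for CD135 the G2 and M phase median was 0.73 (20 of 27 higher), and for Dach1-GFP 0.74 (20 of 27). For CD150 it was 0.57 (16 of 27) and for forward scatter 0.42 (5 of 26). The stem cell median was -0.69, -0.65, -0.73 and -0.59 in the same order, with 18 of 20, 18 of 20, 19 of 19 and 16 of 19 genes lower.

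The adjusted CD48 effect minus the other effect, a signed difference that mixes opposite directions with unequal sizes, passed for 683 genes beside CD135 (7.95%), 657 beside Dach1-GFP (7.53%), 135 beside forward scatter (1.66%) and 91 beside CD150 (1.12%). Hmgb2 changed by 0.44 with CD48 and by 1.43 with forward scatter (difference -0.99 ± 0.13, edgeR adjusted p = 1.95e-08), and Hist1h2ap by 0.93 and 1.69. Hlf went the other way, with -0.86 by CD48 and -0.22 by forward scatter (difference -0.64 ± 0.10, edgeR adjusted p = 1.15e-06). Dntt differed by 0.51 with CD48 and by -1.75 with Dach1-GFP, and by 0.59 with CD48 and 1.40 with CD135. Flt3 differed by -0.07 with CD48 and by 1.37 with CD135. Mpo differed by 0.85 with CD48 and -0.78 with CD135 (difference 1.63 ± 0.15, edgeR adjusted p = 4.04e-13), and Cpa3 by 1.30 and -1.55. Car2 differed by -0.69 with CD48 and by 0.07 with CD150. Without replicate 2 the counts adjusted for CD135, CD150, Dach1-GFP and forward scatter were 529, 404, 457 and 236, and without replicate 4 they were 599, 416, 548 and 202. Without replicate 3 the count adjusted for forward scatter was 217.

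A CD48 effect that depended on the other measure was called for few genes. They were 4 with CD135 (0.0465%), 12 with CD150 (0.147%), 17 with forward scatter (0.21%) and 20 with Dach1-GFP (0.229%). At an unadjusted p under 0.05 in edgeR they were 450 of 8595, 420 of 8138, 511 of 8110 and 592 of 8730. A gene that did not pass is not shown to lack such a dependence. Dntt rose with CD48 by 0.82 ± 0.10 in cells below the plate median of Dach1-GFP and differed by -0.13 ± 0.14 above it (edgeR adjusted p of the difference 0.0011). Hist1h2ap rose with CD48 by 0.71 in CD150-low and by 1.62 in CD150-high cells, and by 1.23 in cells of high forward scatter, against 0.33 (not passed) in cells of low forward scatter. Car2 fell by 0.31 in cells of low and by 0.91 in cells of high forward scatter.

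CD48 was also corrected for other channels by regression within each plate before the arms were formed. Corrected for forward and side scatter, 412 of 9002 genes passed (4.58%), 389 of them shared with the uncorrected arms and with the same sign. Corrected for all other sorted channels and scatter, 67 of 8851 passed (0.757%), 43 higher (0.486%) and 24 lower (0.271%). The G2 and M phase list then had 0 of 27 genes past the edgeR threshold (3 at an unadjusted p under 0.05, median 0.01) and the S phase list 0 of 26 (5 at an unadjusted p under 0.05, median 0.08), while the histone list had a median of 0.54 with 10 of 21 higher, against 1.95 with 17 of 23 before correction. Stem cell genes had a median of -0.41 with 2 of 20 lower, and lymphoid priming genes one of 0.00 with 1 of 20 higher. Cd48 RNA was still higher (0.80 ± 0.12), as were Cpa3 (1.74), Mpo (0.64) and Cdk6 (0.42), and Hlf (-0.51), Txnip (-0.38), Car2 (-0.48) and Mmrn1 (-1.43) were still lower. Dntt was 0.02, Irf8 0.22 and Top2a 0.21, and none of these 3 passed.

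**Figure D5:**
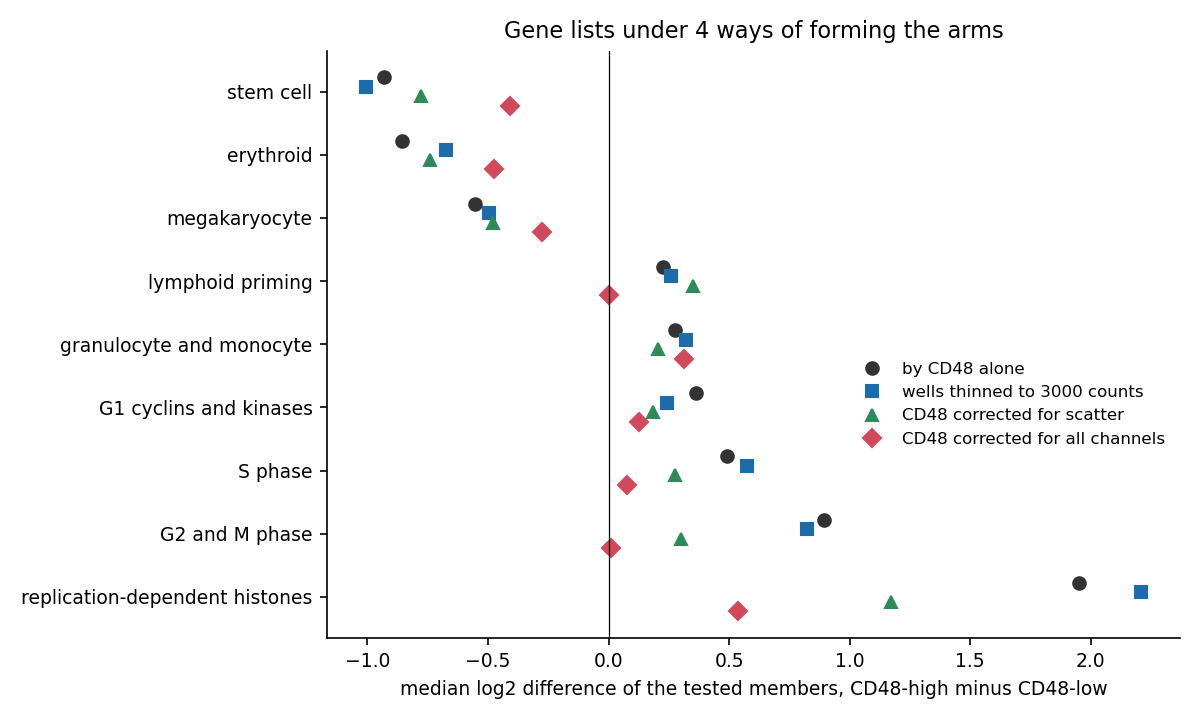
Median log2 difference of the tested members of 9 gene lists for arms formed by CD48 alone, with wells thinned to 3000 counts, and with CD48 corrected for scatter or for all other channels. The G2 and M phase median is 0.89, 0.82, 0.30 and 0.01, and the stem cell median is -0.93, -1.01, -0.78 and -0.41. The medians are over unlike sets of tested genes: 28, 14, 27 and 27 for G2 and M phase, and 21, 16, 21 and 20 for stem cell.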

How the data were processed

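Single LSK cells of the 4 plates with a CD48 record were measured by CEL-seq2 and by index sorting. The authors deposited whole-number counts per gene and well. No gene exceeded 362 counts in a well, and 6 bases give 4096 tags, so whether these are reads or molecules cannot be read from the values. Not given in the sources used here are aligner, counter and tag handling. The build named in the submitters' processing notes is GRCh38, a human assembly, while the gene identifiers are mouse Ensembl identifiers, so no coordinates were taken from the counts. The deposited fluorescence intensity of each sorted cell is on the linear scale of the sorter, per the file headers, and compensation is not stated. Scatter areas are on the same record.

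Wells with at least 1000 counts and 500 genes were joined to the sort record by barcode (336 to 340 wells per plate, 2093860 to 2742061 counts). Wells of each plate were divided by CD48, counts were summed per plate and part, and the sums entered edgeR 4.0.16 in R 4.3.3, filtered by filterByExpr, scaled by TMM and tested by quasi-likelihood with the plate as a block. P-values were adjusted by Benjamini-Hochberg over each whole table at 0.05. Adjusted p-values of genes are from this test unless DESeq2 1.42.0, the alternative, is named. A log2 difference is CD48-high minus CD48-low with a standard error derived from the edgeR test statistic. That error draws on variance shared across genes and can differ from a gene's own spread over plates. The ± after CPM is the SD over 4 plates. Medians and shares of cells were compared by exact sign-flip tests over plates, whose smallest two-sided p is 0.13. Exact (Clopper-Pearson) 95% intervals cover counting error only. No doublet caller was run, since the sort record gives 1 cell per well. On replicates 1 to 4, 10, 9, 13 and 9 wells with counts columns had no joined sort record and did not enter the arms. The deepest of them held 8370, 5500, 6461 and 5544 counts, and the origin of these counts was not tested. The arms are paired by design, being cells of the same plate, and they deviated together from the arm means (correlation 0.20 to 0.34 over 9082 genes). The edgeR script was tested on simulated counts.

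A few named genes are not reported here.

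Alternatives were thinning to 3000 counts, arms by CD48 corrected for scatter, cKit or all channels by regression within a plate, arms of other sizes (the outer parts of 4, or above against below the median), no block, other scaling and filters, leaving out each plate, and leaving out wells over 20% mitochondrial counts or with at least 0.5% of counts from markers of another lineage. The cKit correction and the fit without a scaling factor were chosen after seeing the data. Gene symbols matched 23156 of 23215 identifiers. The text names Cd48 and the genes of the sorted proteins, the 12 largest rises and falls among called genes with the same sign on 4 plates and at least 20 CPM, the 4 members of each list with the smallest p, and the 5 genes per direction with the smallest p in each adjusted fit, plus list members chosen after their values were seen. Members and lists were chosen with earlier results of these data known. Promoters are from RefSeq on GRCm38.p6. Figures used matplotlib 3.10.9.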

Additional observations from a re-analysis of the deposited data

Results flagged for a closer look

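The CD48 effect on a gene differed with the level of another measure, by the test of that difference in edgeR with the plate as a block, for the genes given here, the 5 with the smallest p in each direction where as many passed. Values are the CD48 effect in cells above the plate median of the other measure minus that in cells below it, on the log2 scale.

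H2A histone genes had a larger CD48 effect in CD150-high cells. The difference was 0.90 for Hist1h2ap, 1.08 for Hist1h2ae, 1.01 for Gm11336 and 0.97 for Hist1h2ag. With forward scatter it was 0.90 for Hist1h2ap, 0.85 for Gm11336, 0.75 for Hist1h2ae and 0.77 for Hist1h2ac. With Dach1-GFP it was 1.07 for Hist1h2ao, 0.65 for Hist1h2ap, 0.75 for Hist1h2ac and 0.77 for Gm11336.

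Genes of other kinds differed as well. Dntt had a difference of -0.96 with Dach1-GFP. Blvrb, a biliverdin reductase of erythroid cells, had one of 2.14, from -1.37 in Dach1-GFP-low to 0.78 in Dach1-GFP-high cells. Prtn3 had one of -0.73 with CD135 and Malat1, a nuclear long noncoding RNA, one of -0.24 with Dach1-GFP. With forward scatter Car2 had a difference of -0.59, Hbb-bt of -1.66 and Hbb-bs of -1.76. Most globin counts of CD48-low cells came from replicate 3, and the part of those cells in the Hbb-bt and Hbb-bs differences was not tested. Without replicate 3 the test with forward scatter called 3 genes, against 17 with all plates. Cd74, a chaperone of antigen presentation, had -1.49 with CD135 and -1.82 with forward scatter, and H2-Ab1, a class II beta chain, had -1.12 with forward scatter.

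Immunoglobulin genes had differences of -1.83 (Igkc) and -2.29 (Jchain) with CD135, of 1.40 (Igkc) with CD150, of 2.14 (Jchain) with forward scatter, and of -1.77 (Igkc), -2.44 (Jchain) and -1.29 (Ighg2c) with Dach1-GFP. Igkc and Jchain counts moved with the few cells rich in plasma cell RNA, and the part of those cells in these differences was not tested.

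In 6 of 137 values over the 4 plates, 1 plate stood apart from the other 3, where chance sets about 1 in 20 apart. For Hlf, replicate 1 had a log2(CPM + 1) difference of -1.10 and the others -1.27 to -1.26. For Rpl4, replicate 4 had -0.28 and the others -0.17 to -0.15. For Ndufa4, a respiratory chain subunit, replicate 2 had 0.86 and the others 0.30 to 0.32. The ratio of medians of CD48-high to CD48-low cells was 1.57 for CD150 and 0.73 for Dach1-GFP on replicate 4, and 1.36 for side scatter on replicate 2.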

How the results depend on the processing

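Main counts were 1043 genes, 640 higher and 403 lower. Counts fell to 439 (252 and 187) with thinned wells, where fewer genes and counts entered, to 203 (145 and 58) with DESeq2, to 412 (241 and 171) with CD48 corrected for scatter and to 67 (43 and 24) with CD48 corrected for all channels. Without the plate block, which pairs the arms of a plate, the count was 298 (193 and 105). The cause of these changes was not tested. RLE factors, a filter of 10 CPM, cKit correction and leaving out mitochondrial or other-lineage wells kept the count within 1017 to 1069. No low-count filter gave 1161 (851 and 310, 73.3% higher against 61.4%), and the outer parts of 4 gave 857. With thinned wells the counts adjusted for CD135, CD150, forward scatter and Dach1-GFP were 364, 250, 161 and 367, and the linear score called 441. The share of cells with division RNA differed by 11.8 points at 2 counts and 23.7 points at 5 counts, against 19.3 at 3 counts.

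Leaving out 1 plate gave 677 to 963 genes (426 to 593 higher, 251 to 370 lower), 529 to 778 adjusted for CD135, 404 to 579 for CD150, 202 to 252 for forward scatter and 457 to 747 for Dach1-GFP, 694 to 918 for the linear score and 1 to 15 for the middle term. Differences in the CD48 effect were found for 3 to 6 genes with CD135, 11 to 13 with CD150, 3 to 23 with forward scatter and 8 to 27 with Dach1-GFP. Cd48 stayed within 1.37 to 1.5.

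These list medians, among others, changed sign. Corrected for all channels they were 0.019 for glycolipid anchor genes, -0.27 for MHC class II, 0.079 for the Myc network 0.088 for immediate early and 0.0051 for quiescence genes, and Mki67 was -0.0074 and Ighm -0.059. With thinned wells only 1 mast cell and 1 immediate early gene could be tested, against 4 and 7 in the main fit. They were at -0.18 and 0.16, values of single genes that cannot show a change of the list. The SLAM family median was 0.062 with thinned wells, over 3 tested genes against 4. Corrected for scatter the medians were 0.011 for the SLAM family and 0.14 for quiescence genes, and without a count filter 0.33 for the SLAM family. With 1 plate left out, the MHC class II median ran from -0.20 to 0.12 and the immediate early median from -0.21 to 0.052.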
